A study of Homo sapiens with 12 samples.

Results

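The genes described here are 10 chemokine and cytokine genes, namely CCL2, CCL3, CCL4, CCL5, CXCL8, CXCL16, IL1B, TNF, OSM and TGFB1. They were picked by symbol out of the 60668 genes in the count tables, with earlier results of these data known. How often they were called is therefore not a result about an independently chosen set. Each had counts, and all 10 were among the 13972 genes that passed the filter on low counts and were tested. RNA was sequenced from MOLM-13, a human acute monocytic leukaemia line known for the MLL-AF9 fusion gene and for an internal tandem duplication (ITD) of the receptor kinase FLT3. There were 4 groups of 3 libraries, all after 8 days in culture. The DMSO group received the solvent alone. The gilteritinib group received an inhibitor of the FLT3 kinase, and the MI-3454 group received an inhibitor of the binding of menin to MLL1. The combination group received both agents. No dose is given in the labels. All groups share these lesions and the same serum-containing medium, with no other cell type in the culture. The p-values reflect only how far replicate libraries of 1 line differ.

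Chemokines are small secreted proteins that attract leukocytes through G-protein-coupled receptors. CC chemokines such as CCL2 to CCL5 draw monocytes, T cells and natural killer cells, and CXCL8 draws neutrophils. IL1B and TNF are inflammatory cytokines of activated monocytes, OSM is a cytokine of the interleukin-6 family that is a known STAT5 target, and TGFB1 is a latent growth factor that mostly restrains inflammation. Blasts of monocytic leukaemias can make many of these proteins, and their transcripts are known to be controlled through NF-kB, AP-1, C/EBP and STAT factors and by rapid decay.

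Sequences just before the start sites are shown for CXCL8 and IL1B, which were higher with MI-3454, and for CCL3, which was far lower with the combination, because these factors are known to act there. RefSeq promoter sequences (build GRCh38.p14) were matched for 5 of the 10 genes, namely IL1B, CXCL8, TNF, CCL3 and TGFB1. The stretches below hold only bases upstream of both the RefSeq and the GENCODE 29 start sites, on the strand of the gene and 5′ to 3′, with matches to a searched motif in capitals.
CXCL8, chr4:73740319-73740505, plus strand: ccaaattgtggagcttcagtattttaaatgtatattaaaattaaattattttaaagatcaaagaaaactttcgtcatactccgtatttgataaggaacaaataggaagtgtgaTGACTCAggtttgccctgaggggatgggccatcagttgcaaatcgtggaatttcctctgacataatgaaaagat
IL1B, chr2:112836904-112837029, minus strand: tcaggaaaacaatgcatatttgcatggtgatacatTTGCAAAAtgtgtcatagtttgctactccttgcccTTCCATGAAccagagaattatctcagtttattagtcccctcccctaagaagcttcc
CCL3, chr17:36090170-36090393, minus strand: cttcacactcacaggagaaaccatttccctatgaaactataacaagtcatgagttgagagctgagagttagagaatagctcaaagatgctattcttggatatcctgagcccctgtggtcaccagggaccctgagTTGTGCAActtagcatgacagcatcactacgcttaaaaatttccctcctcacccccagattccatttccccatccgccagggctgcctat

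Each motif was searched on both strands of the 300-base RefSeq window, and no match overlapped a match of another motif. The AP-1 motif TGANTCA was present in CXCL8, and 7.71% of all 35116 windows of that length held it. The C/EBP motif TTGCNNAA was present in IL1B and CCL3, against 10.5% of all windows. The STAT motif TTCNNNGAA was present in IL1B, against 7.66%. The NF-kB motif GGGRNNYYCC was present in TGFB1, against 11.3%, and no motif was matched in the TNF window. A match describes the letters only. A binding site that departs from these letters is not marked, so a stretch in small letters, that of CXCL8 included, may still hold one.

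CCL3 and CCL4 have near-identical copies, and their counts depend on how reads were divided between them. The symbols CCL3L3 (named CCL3L1 in GENCODE 29) and CCL4L2 were in the tables. The aligned coding sequences of CCL3 and CCL3L3 were 95.7% identical, with 9 substitutions and a gap of 3 bases. Those of CCL4 and CCL4L2 were 97.5% identical over 276 bases, with 7 substitutions. The lines below show the 60-base coding stretch of each pair with the most differences, differing bases in capitals, because only a read that covers such a base can be placed in 1 gene of the pair.
CCL3, coding bases 199 to 258: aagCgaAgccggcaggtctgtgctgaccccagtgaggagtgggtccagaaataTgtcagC
CCL3L3, coding bases 202 to 261: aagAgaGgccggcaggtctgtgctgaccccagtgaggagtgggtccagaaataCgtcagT
CCL4, coding bases 178 to 237: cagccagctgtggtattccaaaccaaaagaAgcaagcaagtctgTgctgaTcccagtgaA
CCL4L2, coding bases 178 to 237: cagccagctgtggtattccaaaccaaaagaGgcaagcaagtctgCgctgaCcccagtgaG
Of the 50-base windows along the transcript, 9.88% of those of CCL3 and 21.3% of those of CCL4 also occurred in a transcript of the copy. Of the 100-base windows, 0.0% of those of CCL3 and 5.59% of those of CCL4 did. Values of these 4 genes are uncertain to the extent that reads came from shared stretches, which was not measured.

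Libraries held 6472940 to 12051457 reads counted in genes. The share of uniquely placed reads outside genes was 15.6 to 25.5% in the DMSO, gilteritinib and MI-3454 libraries and 28.5 to 36.5% in the combination libraries. The small RNA RN7SL1 took 4.27% of counts in DMSO replicate 2 and 4.56% in MI-3454 replicate 3, its highest shares. Known menin-MLL1 targets were lower with MI-3454 (MEIS1 by a log2 change of -2.62, MEF2C by -2.35), and the STAT5 target PIM1 was lower with gilteritinib (-4.20), each called by edgeR. A fall in PIM1 was not particular to gilteritinib, since MI-3454 by itself took it from 930 to 275 CPM (-1.76). Transcripts of FLT3 averaged 698 CPM in DMSO and 521 with gilteritinib. They averaged 228 CPM with MI-3454 and 191 with the combination, and edgeR called each treated group lower than DMSO. The part of the FLT3 change in the results below was not tested. The defining T-cell genes CD3G and CD2, the B-cell gene MS4A1, the erythroid gene HBB and the fibroblast gene COL3A1 had no counts, but other genes of these marker lists were expressed. The 8 T and NK cell genes summed to 44.7 to 57.8 CPM in the DMSO and gilteritinib libraries and 71.6 to 100.2 CPM in the libraries with MI-3454. NKG7 (29.4 CPM in DMSO) and NCAM1 (19.3) were called higher with MI-3454 (50.9 and 32.0) and with the combination (55.5 and 25.9), and CD3D was lower with the combination (0.538 against 1.77). The 5 B-cell genes summed to at most 1.90 CPM, the 6 erythroid and megakaryocyte genes to at most 2.001 CPM and the 7 fibroblast and epithelial genes to at most 18.6 CPM. Of the last list COL1A1 was higher with gilteritinib (3.001 against 1.09) and KRT18 lower with the combination (3.95 against 9.35). Each of the 10 myeloid marker genes had counts. CD14 was at 0.286 CPM in DMSO and 0.0279 CPM with gilteritinib, against 12.7 with MI-3454 and 14.4 with the combination. The summed level of the 10 moved with the treatments, from 1835 to 2134 CPM in DMSO and 2580 to 2656 CPM with gilteritinib to 10270 to 11312 CPM with MI-3454 and 15766 to 17153 CPM with the combination. In the groups with MI-3454 most of that sum was LYZ, the lysozyme gene, which was at 415 CPM in DMSO, 683 with gilteritinib, 7847 with MI-3454 and 13522 with the combination. Of the 10, 5 were called higher with gilteritinib, 7 with MI-3454 and 8 with the combination. Of all genes tested, 6.92%, 10.1% and 29.2% were called higher in the same order. SPI1, ITGAM and CEBPA were not called with MI-3454. In the combination SPI1 (288 CPM against 265 in DMSO) and FCGR1A (36.7 against 30.4) were not called. CPM stands for counts per 1000000 counted reads, scaled between libraries by the TMM method. The part of these marker and read-share differences in the results below was not tested, and in bulk RNA fewer cells expressing a gene and less RNA per cell cannot be told apart.

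A change was called where edgeR's quasi-likelihood test gave an adjusted p under 0.05 over all genes tested. Against DMSO, gilteritinib changed 4 of the 10 genes, where 15.1% of all genes tested were called (6.92% higher and 8.18% lower). CCL3, CCL5 and TNF were higher and OSM was lower. With the replicate number as a block, 5 of the 10 and 4928 of the 13972 genes tested were called. The block is given here because same-numbered libraries deviated together in this comparison. TGFB1 was the gene added (log2 change 0.20, edgeR adjusted p 0.0335). DMSO replicate 2 and gilteritinib replicate 2 were each the library highest in RN7SL1 in their group. The part of that share in the blocked values was not tested. MI-3454 changed 7 of the 10, against 19.0% of all genes (10.1% higher and 8.95% lower). CXCL8, CXCL16 and IL1B were higher, and CCL2, CCL4, CCL5 and OSM were lower. The combination changed 9 of the 10, where 57.5% of all genes were called (29.2% higher and 28.4% lower). CXCL8, CXCL16 and IL1B were higher, and CCL2, CCL3, CCL4, CCL5, TNF and OSM were lower. The median log2 change of the 10 genes was 0.23 for gilteritinib, -0.29 for MI-3454 and -0.96 for the combination, beside -0.00063, 0.0032 and -0.00066 over all genes tested. The 3 comparisons share the DMSO libraries.

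**Figure D1:**
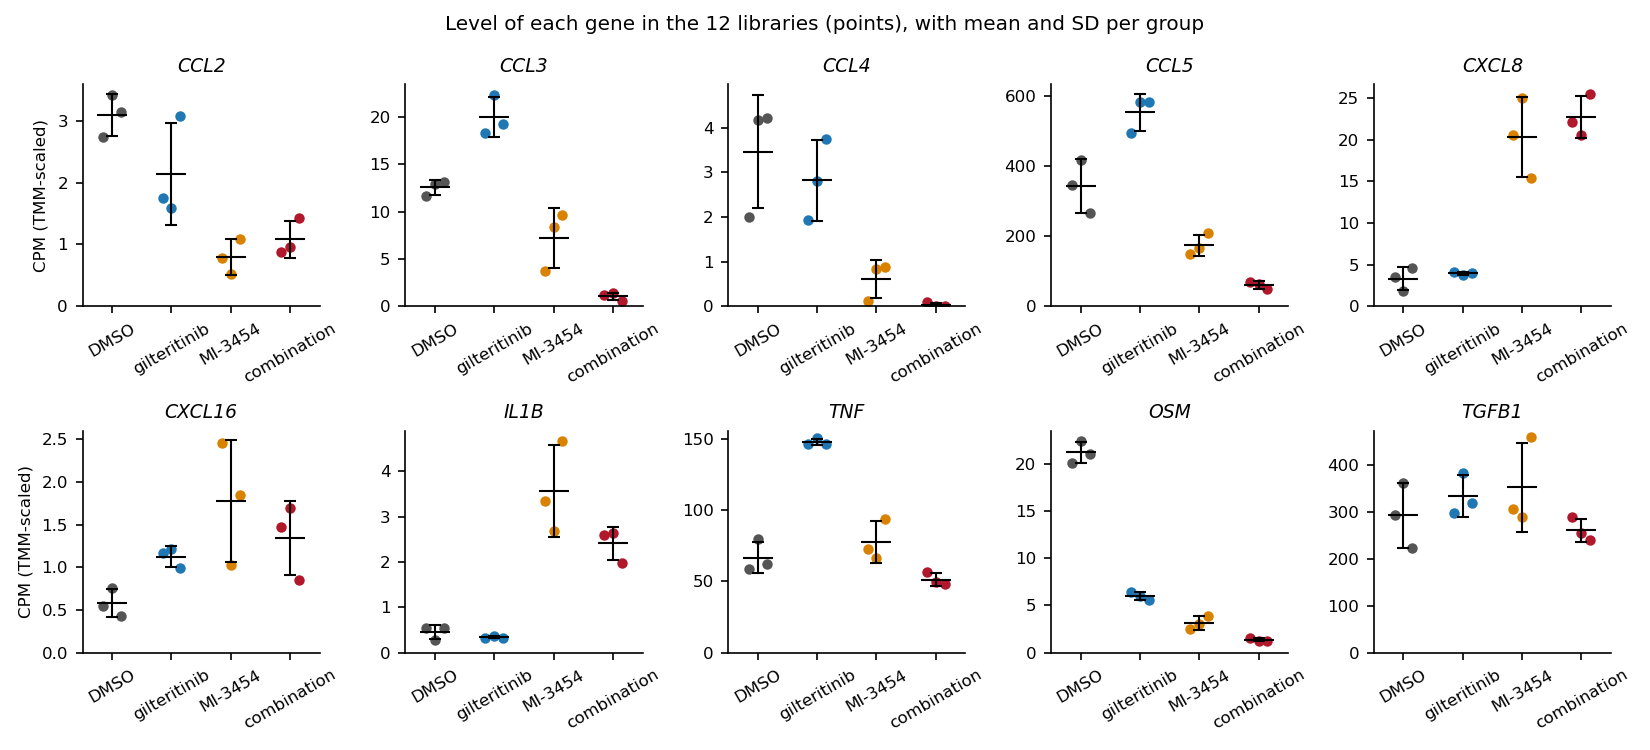
Level of each gene (CPM, linear axis from 0) in the 12 libraries. Points are libraries, the horizontal bar is the group mean and the vertical bar the SD of 3 libraries. CXCL8 and IL1B sit high in both groups with MI-3454, TNF is highest with gilteritinib alone, and OSM falls in every treated group from 20.1 to 22.4 CPM in DMSO.

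CCL2 (chr17:34255218-34257203, GRCh38, plus strand) encodes the chief monocyte attractant, whose receptor is CCR2. In DMSO its level was 2.73, 3.42 and 3.13 CPM, and with gilteritinib 1.76, 1.58 and 3.08 CPM. With MI-3454 it was 0.782, 0.515 and 1.09 CPM, and with the combination 0.869, 0.953 and 1.42 CPM. The 6 libraries with MI-3454 all lay below the DMSO libraries, while 1 gilteritinib library lay inside the DMSO range. CCL2 fell 3.86-fold with MI-3454 (log2 change -1.95 ± 0.34 SE, edgeR adjusted p 0.00172) and 2.93-fold with the combination (-1.55 ± 0.32, edgeR adjusted p 0.000586). With gilteritinib alone the log2 change was -0.54 ± 0.29 and was not called (edgeR adjusted p 0.237). The combination and MI-3454 did not differ beyond their spread in CCL2, at a log2 difference of 0.41 ± 0.43 (edgeR adjusted p 0.503). Counts of this gene were low, from 5 to 36 reads a library.

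CCL3 (chr17:36088256-36090169, minus strand) encodes MIP-1-alpha, a ligand of CCR1. Its level was 11.6, 12.9 and 13.2 CPM in DMSO and 18.3, 22.4 and 19.3 CPM with gilteritinib. It was 3.68, 8.34 and 9.67 CPM with MI-3454 and 1.13, 1.38 and 0.568 CPM with the combination. No group overlapped its neighbour. CCL3 rose 1.59-fold with gilteritinib (log2 change 0.66 ± 0.14, edgeR adjusted p 0.00613) and fell 11.7-fold with the combination (-3.54 ± 0.25, edgeR adjusted p 3.79e-09). With MI-3454 alone the log2 change was -0.79 ± 0.27, just outside the threshold (edgeR adjusted p 0.0622). That value passed it without MI-3454 replicate 3 (log2 change -1.05, edgeR adjusted p 0.00468) and with DESeq2 (adjusted p 0.0259). The gilteritinib call was lost with all 12 libraries in 1 fit, at an edgeR adjusted p of 0.0502.

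CCL3L3 (chr17:36194869-36196758, minus strand), the copy of CCL3, moved in the same direction as CCL3 with gilteritinib and with the combination. It had 16.0, 17.2 and 15.01 CPM in DMSO, and 30.3, 44.9 and 34.8 CPM with gilteritinib. With MI-3454 it had 13.4, 18.3 and 19.9 CPM, a range that overlapped DMSO, and with the combination 2.35, 2.54 and 2.6997 CPM. CCL3L3 rose with gilteritinib (log2 change 1.18 ± 0.15, edgeR adjusted p 0.000254) and fell with the combination (-2.67 ± 0.19, edgeR adjusted p 3.62e-09). With MI-3454 alone its log2 change of 0.10 ± 0.17 was not called (edgeR adjusted p 0.748). Summing the counts of both copies gave log2 changes of 0.98 with gilteritinib, -0.23 with MI-3454 and -3.00 with the combination, and the calls were those of CCL3 alone.

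CCL4 (chr17:36103590-36105621, plus strand) encodes MIP-1-beta, an attractant of monocytes and lymphocytes. Its level was 2.001, 4.18 and 4.21 CPM in DMSO and 1.92, 2.80 and 3.74 CPM with gilteritinib, ranges that overlapped. With MI-3454 it was 0.112, 0.824 and 0.870 CPM, below every DMSO library. With the combination a single read was counted over the 3 libraries, against 105 reads in DMSO. CCL4 fell 5.56-fold with MI-3454 (log2 change -2.47 ± 0.50, edgeR adjusted p 0.00410). The ratio of DMSO to combination was 95.4, with an exact 95% counting interval of 16.8 to 3805 (edgeR adjusted p 1.20e-06). With gilteritinib alone the log2 change was -0.31 ± 0.33 and was not called (edgeR adjusted p 0.570).

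CCL4L2 (chr17:36210924-36212878, plus strand) was called higher with gilteritinib, where CCL4 was not called. It had 1.91, 1.99 and 2.16 CPM in DMSO and 6.94, 9.72 and 8.37 CPM with gilteritinib, with no overlap. With MI-3454 it had 0.670, 1.96 and 2.07 CPM, and with the combination 0.174, 0.318 and 0 CPM from 5 reads in all. CCL4L2 rose 4.09-fold with gilteritinib (log2 change 2.03 ± 0.21, edgeR adjusted p 5.21e-05) and fell with the combination (-3.41 ± 0.53, edgeR adjusted p 3.95e-05). It supplied 37.1% of the reads of the pair in DMSO and 74.9% with gilteritinib. CCL4L2 was not called with MI-3454 (-0.36 ± 0.38, edgeR adjusted p 0.587), and with the copies summed the change of the pair with MI-3454 was -1.32 ± 0.37 (edgeR adjusted p 0.0277), smaller than that of CCL4 alone. With the copies summed, the log2 change of the pair with gilteritinib was 1.02 ± 0.21 (edgeR adjusted p 0.00719), opposite in sign to that of CCL4 alone. The difference between the responses of CCL4 and CCL4L2 was not tested.

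**Figure D2:**
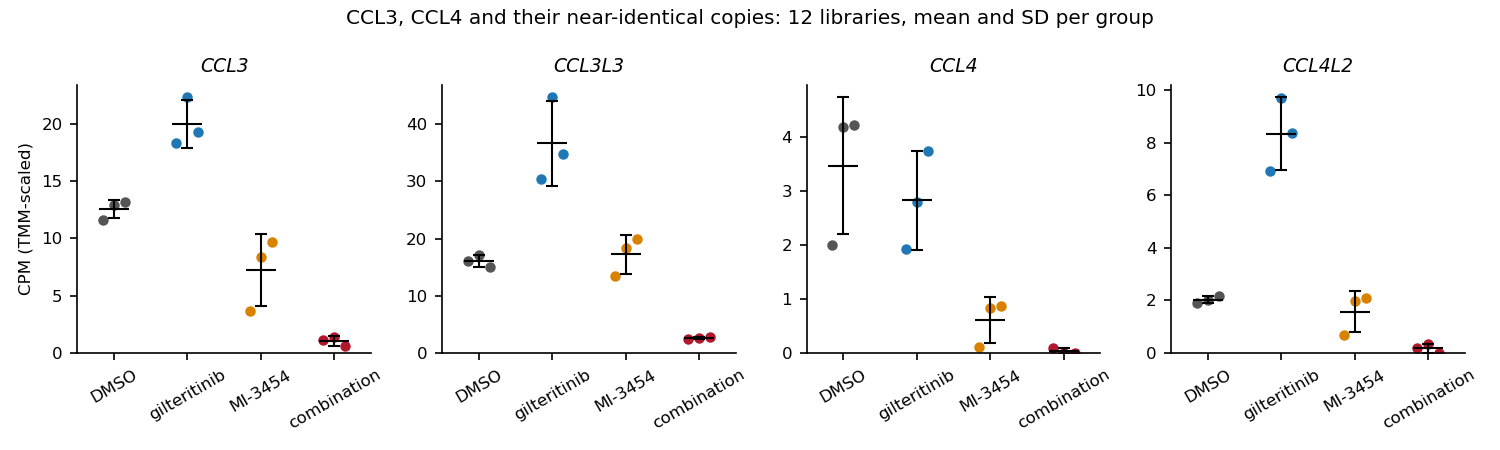
Level (CPM, linear axis from 0) of CCL3, CCL4 and their copies in the 12 libraries, with group mean and SD. CCL3, CCL3L3 and CCL4L2 are highest with gilteritinib, CCL4 is not, and the 4 genes are lowest with the combination.

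CCL5 (chr17:35871491-35880793, minus strand) encodes RANTES, which binds CCR1 and CCR3. Its level was 346, 417 and 265 CPM in DMSO and 493, 583 and 581 CPM with gilteritinib. It was 147, 165 and 207 CPM with MI-3454 and 67.9, 64.2 and 48.9 CPM with the combination. The 4 groups did not overlap. CCL5 rose 1.61-fold with gilteritinib (log2 change 0.69 ± 0.15, edgeR adjusted p 0.0100), fell 1.97-fold with MI-3454 (-0.98 ± 0.18, edgeR adjusted p 0.00201) and fell 5.66-fold with the combination (-2.50 ± 0.16, edgeR adjusted p 1.13e-09). The gilteritinib call was lost without DMSO replicate 1, where the log2 change was 0.70 and the edgeR adjusted p 0.0506. CCL5 overlaps an annotated gene on the other strand, as do CCL3, CXCL16 and TGFB1, and no source used here gives the strand setting of the counting.

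CXCL8 (chr4:73740506-73743716, plus strand), whose promoter is shown above, encodes interleukin-8, the neutrophil attractant bound by CXCR1 and CXCR2. Its level was 3.55, 1.80 and 4.54 CPM in DMSO and 4.10, 3.77 and 3.96 CPM with gilteritinib. It was 20.5, 25.02 and 15.4 CPM with MI-3454 and 22.1, 20.5 and 25.4 CPM with the combination. The groups with and without MI-3454 were far apart, and within each of these pairs the libraries overlapped. CXCL8 rose 6.21-fold with MI-3454 (log2 change 2.63 ± 0.28, edgeR adjusted p 3.65e-05) and 6.91-fold with the combination (2.79 ± 0.22, edgeR adjusted p 2.04e-08). Gilteritinib alone gave a log2 change of 0.27 ± 0.29, which was not called (edgeR adjusted p 0.563). Adding gilteritinib to MI-3454 gave 0.16 ± 0.17 (edgeR adjusted p 0.513).

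CXCL16 (chr17:4733526-4739922, minus strand) encodes a chemokine made as a membrane protein and shed by ADAM10, with CXCR6 as its receptor. It was counted with 4 to 22 reads a library. Its level was 0.546, 0.759 and 0.432 CPM in DMSO and 1.17, 1.22 and 0.991 CPM with gilteritinib. It was 2.46, 1.03 and 1.85 CPM with MI-3454 and 1.48, 1.69 and 0.853 CPM with the combination. Every treated library lay above the DMSO libraries, and the treated groups overlapped each other. CXCL16 rose 2.98-fold with MI-3454 (log2 change 1.58 ± 0.45, edgeR adjusted p 0.0285) and 2.34-fold with the combination (1.22 ± 0.43, edgeR adjusted p 0.0229). The change with gilteritinib was 0.93 ± 0.40 and was not called (edgeR adjusted p 0.141). Both calls for CXCL16 were lost on leaving out single libraries, while its log2 change stayed above 1. The MI-3454 call was lost without DMSO replicate 1, DMSO replicate 3 or MI-3454 replicate 1 (log2 changes 1.52, 1.42 and 1.28, edgeR adjusted p 0.0981, 0.0905 and 0.129). The combination call was lost without DMSO replicate 1 or 3 (1.16 and 1.07) or without combination replicate 1 or 2 (1.16 and 1.05), with edgeR adjusted p from 0.0651 to 0.106, and with DESeq2 (adjusted p 0.0845).

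IL1B (chr2:112829751-112836903, minus strand) encodes interleukin-1-beta, which is made as a precursor and cut by caspase-1 in the inflammasome. Its level was 0.546, 0.285 and 0.540 CPM in DMSO and 0.334, 0.365 and 0.330 CPM with gilteritinib, from 3 to 6 reads a library. With MI-3454 it was 3.35, 2.68 and 4.67 CPM, and with the combination 2.61, 2.65 and 1.99 CPM, from 14 to 43 reads. All 6 libraries with MI-3454 lay above all 6 without it. IL1B rose 7.64-fold with MI-3454 (log2 change 2.93 ± 0.39, edgeR adjusted p 0.000225) and 5.26-fold with the combination (2.39 ± 0.39, edgeR adjusted p 6.78e-05). The value with gilteritinib alone was -0.40 ± 0.56 (edgeR adjusted p 0.677). The combination lay below MI-3454 in every library, by a log2 difference of -0.53 ± 0.28 that was not called (edgeR adjusted p 0.174).

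TNF (chr6:31575567-31578336, plus strand) encodes tumour necrosis factor, a membrane protein shed by ADAM17 that signals through TNFRSF1A and TNFRSF1B. Its level was 58.7, 79.3 and 62.0 CPM in DMSO and 146, 150 and 147 CPM with gilteritinib. It was 72.8, 66.2 and 93.8 CPM with MI-3454 and 56.4, 49.5 and 47.9 CPM with the combination. The gilteritinib libraries stood above all others, DMSO and MI-3454 overlapped, and the combination was lowest. TNF rose 2.21-fold with gilteritinib (log2 change 1.15 ± 0.12, edgeR adjusted p 4.74e-05). It fell 1.30-fold with the combination (-0.38 ± 0.13, edgeR adjusted p 0.0183), a call lost without combination replicate 2 or 3 (log2 changes -0.35 and -0.33, edgeR adjusted p 0.0737 and 0.0785) and with scaling by total counts (-0.27, edgeR adjusted p 0.0697). With MI-3454 alone TNF changed by 0.22 ± 0.16 on the log2 scale, which was not called (edgeR adjusted p 0.395).

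OSM (chr22:30262829-30266840, minus strand) encodes oncostatin M, which signals through IL6ST with OSMR or LIFR. Its level was 20.1, 22.4 and 21.1 CPM in DMSO, 6.44, 5.96 and 5.62 CPM with gilteritinib, 2.46, 2.99 and 3.91 CPM with MI-3454, and 1.57, 1.27 and 1.28 CPM with the combination. The groups formed 4 steps with no overlap. OSM fell 3.51-fold with gilteritinib (log2 change -1.81 ± 0.14, edgeR adjusted p 3.89e-06), 6.77-fold with MI-3454 (-2.76 ± 0.19, edgeR adjusted p 1.10e-06) and 15.1-fold with the combination (-3.92 ± 0.20, edgeR adjusted p 6.01e-11). It was the 1 gene of the 10 called lower in all 3 treated groups. The step from MI-3454 to the combination was -1.16 ± 0.30 (edgeR adjusted p 0.0144), and without combination replicate 2 it was -1.10 and no longer called (edgeR adjusted p 0.0615).

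TGFB1 (chr19:41301587-41353911, minus strand), whose product is secreted bound to a latency peptide, was not called in any treated group against DMSO. Its level was 293, 363 and 225 CPM in DMSO, 299, 384 and 319 CPM with gilteritinib, 307, 291 and 462 CPM with MI-3454, and 289, 255 and 241 CPM with the combination. Each treated group overlapped DMSO. The log2 changes were 0.19 ± 0.16 (gilteritinib), 0.27 ± 0.20 (MI-3454) and -0.17 ± 0.14 (combination), at edgeR adjusted p 0.475, 0.418 and 0.340. In each of the 4 groups the library highest in TGFB1 was also the one highest in RN7SL1, and the same held for CCL5 and TNF, as it did for 15.4% of all genes tested. Without those 4 libraries the changes of TGFB1 were 0.26, 0.20 and -0.067 in the same order and none was called (edgeR adjusted p 0.0675, 0.183 and 0.568). Without DMSO replicate 2 the combination value was 0.011, and without DMSO replicate 3 it was -0.32 and called (edgeR adjusted p 0.0384). With the replicate number as a block, TGFB1 was called higher with gilteritinib (log2 change 0.20, edgeR adjusted p 0.0335), and the number of all genes called in that comparison went from 2110 to 4928.

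**Figure D3:**
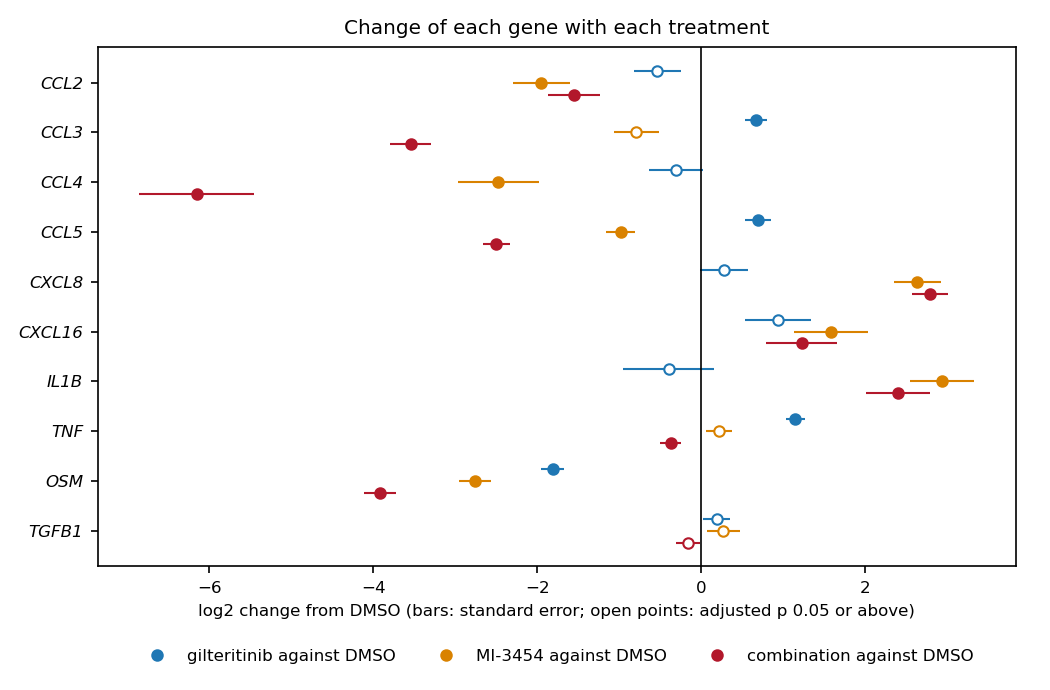
Log2 change of each gene from DMSO with its standard error for the 3 treated groups (3 libraries a group). Filled points were called by edgeR and open points were not. The point of CCL4 with the combination rests on a single read in that group, and OSM is the 1 gene with 3 filled points on the same side of 0.

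The next comparison asked whether the response to gilteritinib differed when MI-3454 was present. The interaction is the log2 change from MI-3454 to the combination minus that from DMSO to gilteritinib, fitted on all 12 libraries. It was called for 3 of the 10 genes, all negative, where 15.3% of all genes were called (6.55% positive and 8.74% negative). CCL3 rose by 0.66 with gilteritinib without MI-3454 and fell by 2.75 on the log2 scale with it (interaction -3.42 ± 0.42, edgeR adjusted p 6.60e-05). CCL5 went from a log2 change of 0.69 to one of -1.51 (interaction -2.21 ± 0.24, edgeR adjusted p 1.64e-05). TNF went from 1.15 to -0.59 (interaction -1.74 ± 0.19, edgeR adjusted p 1.75e-05). These 3 are the genes of the 10 that were called higher with gilteritinib alone. The change with gilteritinib alone is itself a term of the interaction, from the same libraries, so this match is not a separate result. Without the 4 libraries highest in RN7SL1 the interaction was -3.16 for CCL3, -2.28 for CCL5 and -1.80 for TNF, each still called.

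The interaction was also called for the copies, at -3.96 ± 0.27 for CCL3L3 (edgeR adjusted p 1.85e-07) and -5.09 ± 0.64 for CCL4L2 (edgeR adjusted p 8.80e-05). For CCL4 itself it was -3.37 ± 1.23 and not called (edgeR adjusted p 0.0762), but it was called without MI-3454 replicate 1 (-3.82, edgeR adjusted p 0.0363), with the copies summed (-4.30, edgeR adjusted p 0.000779) and with DESeq2 (adjusted p 0.0484). For CXCL8 and IL1B, the genes most raised by MI-3454, the interaction was -0.13 ± 0.35 and -0.14 ± 0.65 (edgeR adjusted p 0.844 and 0.925), and that of CXCL8 changed sign with total counts (0.0045). For OSM it was 0.65 ± 0.29 and for CCL2 0.93 ± 0.51, both positive and not called (edgeR adjusted p 0.147 and 0.232). The value of TGFB1 was -0.62 ± 0.26 (edgeR adjusted p 0.115), and it was called without DMSO replicate 2 (-0.80, edgeR adjusted p 0.0314).

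**Figure D4:**
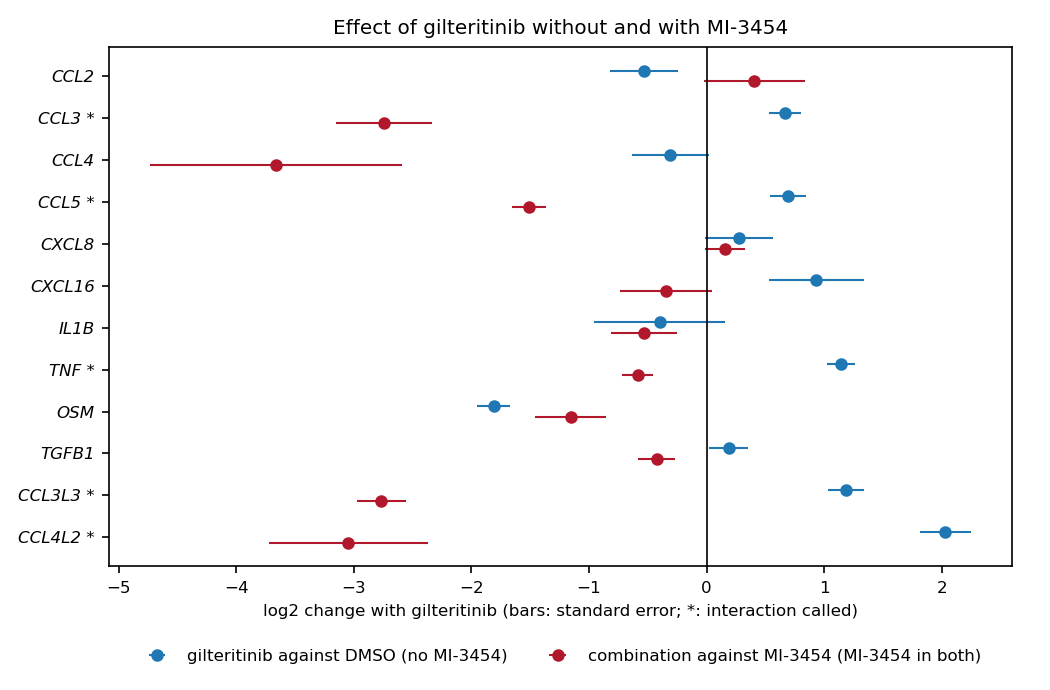
Log2 change with gilteritinib and its standard error, without MI-3454 (gilteritinib against DMSO) and with MI-3454 in both groups (combination against MI-3454). Asterisks mark genes whose interaction was called by edgeR, which are CCL3, CCL5, TNF and the copies CCL3L3 and CCL4L2, and in each of these the 2 points lie on opposite sides of 0.

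Directly compared, the combination was lower than MI-3454 alone in 5 of the 10 genes, where 29.2% of all genes were called (14.1% higher and 15.1% lower). These were CCL3 (log2 difference -2.75 ± 0.41, edgeR adjusted p 0.000597), CCL5 (-1.51 ± 0.15, edgeR adjusted p 2.95e-05), TNF (-0.59 ± 0.13, edgeR adjusted p 0.00637), OSM and CCL4. CCL4 had 17 reads with MI-3454 and 1 with the combination, a ratio of 17.1 with an exact 95% interval of 2.68 to 713, and its call was lost without MI-3454 replicate 2 or combination replicates 2 or 3 (edgeR adjusted p 0.0530, 0.0823 and 0.0731). TGFB1 was lower by -0.42 ± 0.16, which was not called (edgeR adjusted p 0.0629), and it was called without the 4 libraries highest in RN7SL1 (-0.26, edgeR adjusted p 0.0114). Without combination replicate 2, 3 of the 10 genes were called. Against gilteritinib alone, the combination differed in 9 of the 10 genes, where 60.4% of all genes were called (30.1% higher and 30.3% lower). CXCL8 (2.52 ± 0.15) and IL1B (2.80 ± 0.38) were higher, and CCL2, CCL3, CCL4, CCL5, TNF, OSM and TGFB1 were lower, with CCL5 at -3.18 ± 0.13 and TNF at -1.51 ± 0.08 on the log2 scale. The calls for CCL2 (-1.01 ± 0.37) and TGFB1 (-0.34 ± 0.11) were each lost on leaving out single libraries, with edgeR adjusted p up to 0.156 for CCL2 (without gilteritinib replicate 3) and 0.0579 for TGFB1 (without combination replicate 3), and both with total counts (edgeR adjusted p 0.0586 and 0.0504). CXCL16 did not differ beyond its spread (0.30 ± 0.36, edgeR adjusted p 0.483).

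The single agents were also set against each other. MI-3454 differed from gilteritinib in 8 of the 10 genes, where 17.4% of all genes were called (9.96% higher and 7.43% lower). CXCL8 (log2 difference 2.35 ± 0.20) and IL1B (3.32 ± 0.40) were higher with MI-3454. CCL2 (-1.42 ± 0.41), CCL3 (-1.46 ± 0.26), CCL4 (-2.17 ± 0.49), CCL5 (-1.68 ± 0.14), TNF (-0.93 ± 0.13) and OSM (-0.95 ± 0.22) were lower. The call for CCL2 was lost without MI-3454 replicate 1 or 2 or gilteritinib replicate 1 or 3 (edgeR adjusted p up to 0.139), and that for OSM without MI-3454 replicate 1 or gilteritinib replicate 1 (edgeR adjusted p 0.0541 and 0.0567).

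Receptors of the 10 ligands were taken from a list of 21 genes, of which 11 were tested. In the combination 6 were higher and 3 lower than in DMSO, where 57.5% of all genes were called, with a median log2 change of 0.70 over the 11. For this and the following lists, the share of all genes called was 19.0% with MI-3454 alone and 15.1% with gilteritinib alone. CXCR2, a receptor of CXCL8, rose from 5.85 ± 1.04 CPM (SD, n = 3) in DMSO to 40.8 ± 2.13 CPM (log2 change 2.79 ± 0.15, edgeR adjusted p 1.21e-10). CCR2, the receptor of CCL2, went from 56.2 to 279 CPM (2.31 ± 0.11, edgeR adjusted p 3.68e-11) while CCL2 itself was lower. CXCR1 was also higher (2.24 ± 0.53), though at low levels of 0.286 CPM in DMSO and 1.41 CPM in the combination. TGFBR2, a receptor subunit for TGFB1, was higher too (1.65 ± 0.10). MI-3454 alone raised 4 and lowered 1 of the 11, with CCR2 at 1.65 ± 0.14 and CXCR2 at 1.40 ± 0.18. Gilteritinib alone raised 1, CXCR2 (1.37 ± 0.17), and lowered 4, CCR2 (-0.75 ± 0.11) among them. The interaction was called for 4 receptors, all positive, where 15.3% of all genes were called (6.55% positive). CCR2 (1.41 ± 0.16, edgeR adjusted p 2.83e-05) and CCR1 (1.46 ± 0.17, edgeR adjusted p 5.16e-05) were among the 4. CCR1 was called lower than in DMSO in all 3 treated groups, at -1.22 with gilteritinib, -0.59 with MI-3454 and -0.35 with the combination. IL1RAP (-0.53) and ENG (-0.60) were the other receptor genes called lower with the combination. Of the TNF receptor genes, TNFRSF1A was not called in the 3 treated groups against DMSO, with log2 changes of 0.03 with gilteritinib, 0.27 with MI-3454 and 0.20 with the combination. TNFRSF1B was called higher with MI-3454 (0.73 ± 0.11, edgeR adjusted p 0.000739) and with the combination (1.36 ± 0.11, edgeR adjusted p 2.06e-08), but not with gilteritinib (0.19 ± 0.10), and its interaction was 0.45 ± 0.13 (edgeR adjusted p 0.0293).

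**Figure D5:**
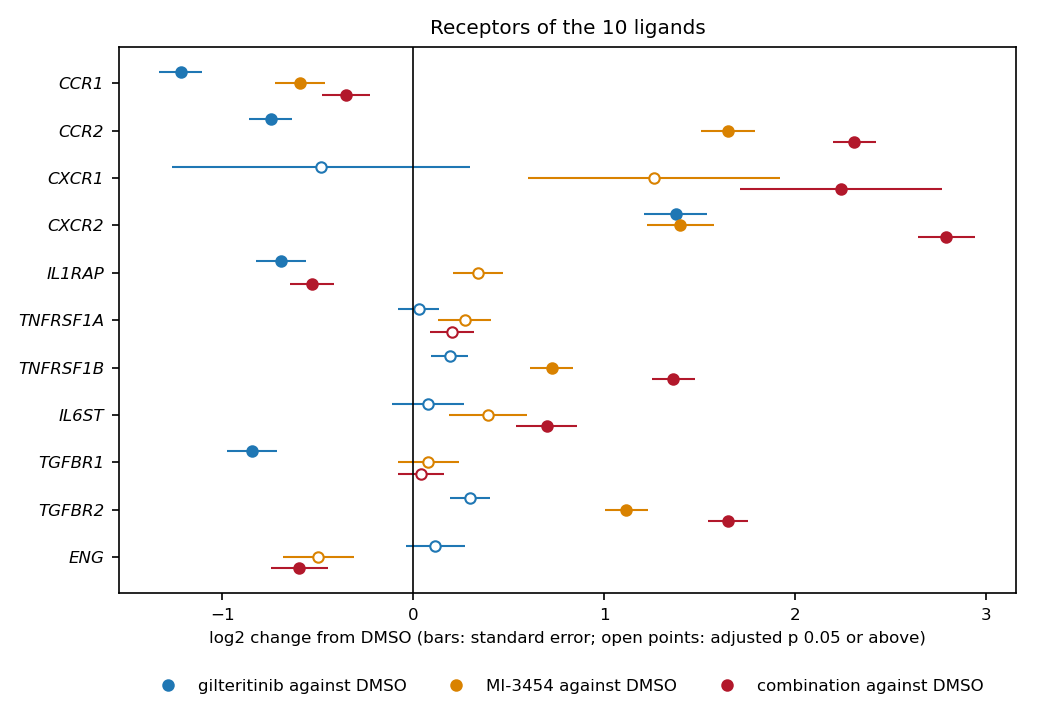
Log2 change from DMSO with its standard error for the 11 tested receptor genes in the 3 treated groups. Filled points were called by edgeR. CXCR2 lies to the right of 0 in each treated group, and CCR2 lies to the left with gilteritinib (-0.75) and to the right in both groups with MI-3454 (1.65 and 2.31).

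Genes that process and release these ligands formed a list of 19, of which 13 were tested. In the combination 5 were higher and 2 lower, with a median log2 change of 0.14, and 57.5% of all genes were called, so the list was called about as often as genes at large. The inflammasome genes NLRC4 (log2 change 2.57 ± 0.34, edgeR adjusted p 6.96e-06) and CASP1 (1.20 ± 0.12, edgeR adjusted p 2.09e-07) were higher, and CASP1 is the gene of the protease that cuts the IL1B precursor. NRROS (-1.29 ± 0.13) and LTBP3 (-1.11 ± 0.20), whose proteins hold latent TGFB1, were lower. The shedding proteases ADAM17 (-0.23 ± 0.11) and ADAM10 (0.18 ± 0.12) were not called (edgeR adjusted p 0.0788 and 0.219). With MI-3454 alone 4 of the 13 were higher and 3 lower, CASP1 at 0.70 ± 0.13 among the higher. With gilteritinib alone 2 were higher and 2 lower, and CASP1 was at 0.03 ± 0.12.

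Few other chemokine genes were expressed, and 4 of 34 listed were tested. In the combination CCL23 was higher (log2 change 0.80 ± 0.22) and CCL24 (-1.71 ± 0.35) and CCL28 (-0.52 ± 0.20) were lower (edgeR adjusted p 0.0050, 0.000523 and 0.0312). The CCL28 call was lost without combination replicate 1 (-0.35, edgeR adjusted p 0.173), without DMSO replicate 1 or 3, and with total counts. CCL23, a myeloid chemokine that binds CCR1, was the 1 of these 4 called with gilteritinib alone (1.498 ± 0.21, edgeR adjusted p 0.000473). Of 24 other cytokine genes of the same families 10 were tested, and in the combination 6 were higher and 3 lower, beside 57.5% of all genes called. CLCF1, of the interleukin-6 family like OSM, rose by 2.84 ± 0.24 on the log2 scale, and TNFSF14 and TNFSF13B, of the TNF family, rose by 1.97 ± 0.13 and 1.88 ± 0.14. CSF1, the macrophage growth factor, fell from 6.87 to 0.563 CPM with the combination (-3.56 ± 0.31, edgeR adjusted p 4.66e-08), and was lower with gilteritinib (-2.15 ± 0.24) and MI-3454 (-1.52 ± 0.31) too, as OSM was.

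Proteins that bind and destabilise or protect cytokine transcripts were represented by 9 genes, all tested. In the combination 4 were higher and 3 lower, beside 57.5% of all genes called. ZFP36L1, which promotes decay of AU-rich transcripts, fell from 16.5 to 0.499 CPM (log2 change -5.01 ± 0.26, edgeR adjusted p 7.69e-11), while its relative ZFP36L2 rose by 1.07 ± 0.11. The endonuclease genes ZC3H12A and ZC3H12D rose by 0.83 ± 0.15 and 0.72 ± 0.14. With MI-3454 alone 2 were higher and 1, ZFP36L1 (-3.22 ± 0.21), was lower (19.0% of all genes called), and with gilteritinib alone 4 were called, all higher (15.1% of all genes called). ZFP36, the gene of tristetraprolin that decays TNF transcripts, was among the latter (0.86 ± 0.25, edgeR adjusted p 0.0401), a call lost without DMSO replicate 1 or 3 or gilteritinib replicate 2 (0.74, 0.70 and 0.52, edgeR adjusted p 0.171, 0.152 and 0.125) and with DESeq2 (adjusted p 0.170).

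Of 3 lists of genes that respond to the same signals, the NF-kB and TGF-beta lists gave mixed directions in the combination. The STAT5 list did not. Of 16 NF-kB and TNF feedback genes 14 were tested, and in the combination 6 were higher and 6 lower, with a median log2 change of -0.074. In the combination 57.5% of all genes were called, with gilteritinib 15.1% and with MI-3454 19.0%, and the counts of the 3 lists here stand beside those shares. TRAF1 (-1.90 ± 0.25), ICAM1 (-1.89 ± 0.14) and IER3 (-1.54 ± 0.14) were lower and TNFAIP2 (1.52 ± 0.11) was higher. With gilteritinib alone, where TNF rose, 2 of the 14 were higher and 4 lower, with ICAM1 at -2.67 ± 0.14. With MI-3454 alone 3 were higher and 4 lower. The 6 STAT5 feedback genes were all lower in the combination, with SOCS2 (-6.04 ± 0.15), PIM1 (-3.79 ± 0.13), CISH (-2.60 ± 0.14) and SOCS1 (-1.23 ± 0.15) the largest, and 4 of the 6 were lower with each single agent, as OSM was. PIM2 was the 1 called higher with gilteritinib (0.42 ± 0.10). The call for SOCS3 in the combination was lost without DMSO replicate 1 or 3 or combination replicate 2 (edgeR adjusted p up to 0.161). Of 13 TGF-beta response genes 9 were tested, and in the combination 4 were higher and 3 lower. SKIL (-1.84 ± 0.17) and PMEPA1 (-1.44 ± 0.29) were lower and ID1 (1.07 ± 0.21) was higher, while TGFB1 itself was not called.

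For each of the 10 genes, the genes whose pattern over the 12 libraries was most like it were found by the root mean square difference of centred log2 CPM, a description with no test. TNF was nearest to OAF (0.15) and LEO1 (0.20), and OAF likewise was highest with gilteritinib, at 85.9 CPM against 41.1 in DMSO. CCL5 was nearest to GATA2 (0.22), which went from 172 CPM in DMSO to 306 with gilteritinib and 24.6 with the combination, and then to CEP170B (0.29). CCL3 was nearest to CTTN (0.35) and C3orf80 (0.42), and OSM to IL4I1 (0.34) and LINC01602 (0.36). CXCL8 was nearest to DMXL2 (0.26) and MSRB3 (0.27), IL1B to CDK14 (0.23) and FPR2 (0.30), and CXCL16 to EPHX1 (0.25) and TST (0.25). FPR2, a receptor of inflammatory peptides, had no counts in the DMSO and gilteritinib libraries and mean levels of 1.22 CPM with MI-3454 and 0.861 CPM with the combination. CCL2 was nearest to ICOSLG (0.32) and BTG2 (0.33), CCL4 to NAT8L (0.50) and RCOR2 (0.52), and TGFB1 to PLP2 and MZT2A (both 0.083).

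The order of the groups therefore differed between the genes. CCL3, CCL5 and TNF were highest with gilteritinib and lowest with the combination. CCL2, CCL4 and OSM were highest in DMSO, and in CCL2 and CCL4 the DMSO and gilteritinib groups did not differ beyond their spread. For CCL4 this order holds for its own reads only. With CCL4L2 added, the pair was called higher with gilteritinib than in DMSO (log2 change 1.02, edgeR adjusted p 0.00719), and its interaction was called (-4.30, edgeR adjusted p 0.000779). CXCL8 and IL1B were high in the MI-3454 and combination groups and low in the other pair, and no difference within either pair was called. In CXCL16 no neighbouring groups were called different, although MI-3454 and the combination were called against DMSO, and in TGFB1 no neighbours were either.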

How the data were processed

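RNA from 12 MOLM-13 libraries was analysed in 4 groups of 3, grouped by the sample titles. The treatment labels carry a different trailing number for MI-3454 in 2 of the 3 libraries of each group that received it, and the titles were followed. The deposited values are raw read counts per Ensembl gene. Per the labels' protocols, ribosomal RNA was depleted and TruSeq libraries were made. Per the submitters' processing notes, cutadapt 2.1, STAR 2.7.1a, HTSeq 0.11.2 and DESeq2 were used with GRCh38. The annotation release and strand setting are not given in these sources. Reads placed at several sites (17.6 to 28.5% of all) were left out of gene counts, per the deposited tables, which affects genes with copies.

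Groups were compared pairwise with edgeR 4.0.16 (R 4.3.3, quasi-likelihood test, TMM scaling, filterByExpr with a minimum count of 10, Benjamini-Hochberg adjustment over 13972 genes, two-sided), and an interaction was fitted on all 12 libraries. CPM values are TMM-scaled. Alternatives were DESeq2 1.42.0, total-count scaling, no filter, a replicate block, all libraries in 1 fit, and leaving out each library. Leaving out the 4 libraries with the highest RN7SL1 share of their group, and summing copies, were added after seeing the data. The scripts were tested on simulated data. Reported calls come from fits with no replicate block. The block was run as an alternative in every comparison, and same-numbered libraries deviated together in all 3 pairs only for gilteritinib against DMSO (correlations 0.14, 0.39 and 0.11), where the blocked values are given beside the results they change. No 2 libraries of a group agreed within sampling noise.

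The members and gene lists (195 of 197 entries matched) were chosen with earlier results of these data known. Up to 4 called genes of each list with the largest change in the combination were named. Uncalled genes, further called genes, or called genes of another comparison were named where a result turned on them. Some list genes are not reported here by name. For each member the 2 nearest genes in pattern were named. GENCODE 29 gave coordinates, and counting intervals cover counting error only.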

Additional observations from a re-analysis of the deposited data

Results flagged for a closer look

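For 3 of the 10 genes the change with gilteritinib differed with the presence of MI-3454 by a test of the difference itself, the edgeR interaction. For CCL3 the interaction was -3.42 ± 0.42 on the log2 scale (edgeR adjusted p 6.60e-05), from a change of 0.66 without MI-3454 to -2.75 with it. For CCL5 it was -2.21 ± 0.24 (edgeR adjusted p 1.64e-05), from 0.69 to -1.51. For TNF it was -1.74 ± 0.19 (edgeR adjusted p 1.75e-05), from 1.15 to -0.59. In CCL5 and TNF the 3 gilteritinib libraries lay above the 3 DMSO libraries, and the 3 combination libraries lay below the 3 MI-3454 libraries, and the same held for CCL3.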

How the results depend on the processing

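Of 904 recomputed results on the 10 genes, 839 kept their direction and side of the threshold, 33 lost a call, 19 gained one and 13 changed sign. Of 3812 on called genes of the other lists, 3508 kept both and 304 lost the call. The number of the 10 genes called stayed within 1.5 times, except combination against MI-3454 without combination replicate 2 (3 in place of 5) and the interaction with no low-count filter (5 in place of 3). On leaving out single libraries it ranged over 6 to 8 (MI-3454 against DMSO), 3 to 4 (gilteritinib), 7 to 9 (combination), 3 to 5 (combination against MI-3454), 7 to 9 (against gilteritinib), 6 to 8 (MI-3454 against gilteritinib) and 3 to 4 (interaction). Without the 4 libraries highest in RN7SL1 it was 8, 4, 9, 6, 9, 8 and 4.

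CCL4 with gilteritinib, not called, became 1.02 with copies summed and was then called higher (edgeR adjusted p 0.00719), a gain beside the 19. The other sign changes were in log2 values that were not called. CXCL8 became -0.0047 for combination against MI-3454 without MI-3454 replicate 3, -0.022 with gilteritinib without DMSO replicate 2 (0.34 and 0.56 at the other end of leaving out single libraries), and, for the interaction, 0.0045 with total counts, 0.17 without DMSO replicate 2 and 0.070 without MI-3454 replicate 2, down to -0.39 without DMSO replicate 3. The IL1B interaction became 0.11 without DMSO replicate 2, 0.10 without MI-3454 replicate 3 and 0.32 without the 4 libraries, down to -0.30 without MI-3454 replicate 2. TGFB1 became -0.18, -0.0026 and -0.069 for MI-3454 against gilteritinib without MI-3454 replicate 3, gilteritinib replicate 1 and the 4 libraries (up to 0.20 without MI-3454 replicate 2), and 0.011 for the combination without DMSO replicate 2 (-0.32 without DMSO replicate 3). The cause was not tested.

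Over all genes, gilteritinib against DMSO gave 2110 calls, 1243 to 3985 without single libraries, 4250 without the 4 libraries and 4928 with the replicate block. MI-3454 against DMSO gave 2658 and 1678 with the block, under which the CXCL16 call was lost (1.55, edgeR adjusted p 0.0751). Combination against MI-3454 gave 4075, and 2456 or 2464 without combination replicate 2 or 3. MI-3454 against gilteritinib gave 2430, 1588 without gilteritinib replicate 1, 4690 without MI-3454 replicate 3 and 5133 without the 4 libraries. The interaction gave 2136, 1365 or 1305 without combination replicate 2 or 3 and 3478 without the 4 libraries. Scaling by total counts shifted the median log2 change of all genes to 0.10 for the combination against DMSO, 0.13 against gilteritinib and 0.11 for the interaction. It moved the higher and lower calls to 5010 and 3140 for the combination against gilteritinib (4210 and 4229 with TMM), 2472 and 1437 against MI-3454 (1972 and 2103) and 1120 and 808 for the interaction (915 and 1221). No other comparison had same-numbered libraries deviating together in every pair. The block changed no other call on the 10 genes than those given for CXCL16, TGFB1 and the CCL4 interaction (-3.30, edgeR adjusted p 0.0418).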
